A study of Mus musculus with 24 samples.

Results

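The lungs described here are those of the 2 C57BL/6J mice (titled C57) that carried the TGF-β1 transgene, out of 24 lungs in the series. They were defined by strain and genotype, in a choice made with earlier results of these data known. They were set against the 15 transgenic lungs of 5 other inbred strains, 3 mice each of 129 (labelled S129), A/J (AJ), AKR/J (AKR), BALB/cJ (BC) and C3H. The 2 wild-type C57BL/6J lungs were read in the same way against the 5 other wild-type lungs, 1 per strain, so that a strain difference present without the transgene could be told from a difference in the response to it. All mice, wild types included, had taken doxycycline in drinking water for 2 weeks, so transgenic and wild-type lungs shared the drug. The labels do not state the promoter or cells that drive the transgene, the age or sex of the mice, or whether each strain was fully backcrossed, and these limit what the strain comparison can be read for. Total RNA of the right lung lobe was hybridised to whole-transcript arrays, and each mouse gave 1 array. The study asked how genetic background modifies the fibrotic response to this growth factor. Its design text places C57BL/6J with A/J and AKR/J among strains prone to fibrosis, whereas the per-sample fibrosis code, as its key is worded, places them with the resistant ones, and no result here uses that code.

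TGF-β is secreted in a latent complex, held in the matrix by latent TGF-β binding proteins and released by integrins and thrombospondins. The active form signals through paired receptors and Smad proteins, and in the lung it is known for driving fibroblasts to lay down collagen and fibronectin while alveolar epithelial cells lose their differentiated state. Inbred strains differ in their alleles throughout the genome, so a gene can differ between them both before and after such a stimulus.

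Values are log2 intensities, on which a difference of 1 is 2-fold, and 13499 genes were read. Differences are given ± SE, and a gene was called where limma's p, adjusted over all 13499 genes, was under 0.05. Across genes the 2 transgenic C57BL/6J lungs correlated at 0.9966 and the 2 wild types at 0.9963, within the range of the 17 pairs of mice that shared a group (0.9916 to 0.9972). Nothing in the labels says whether mice of a group were littermates, and p-values measure the spread between these mice. The lung label was borne out by surfactant protein C, at 14.21 in both C57BL/6J transgenic lungs and 14.35 to 14.46 in the others, and by club cell Scgb1a1, at 13.88 and 13.77 against 13.41 to 13.99. The strain label was checked on H2-Ea, which is not expressed from the MHC b haplotype that C57BL/6 and 129 mice carry. It read 6.60 and 6.90 in C57BL/6J transgenic lungs, with a lowest value of 6.27 and a median of 13.28 among the others. Nnt, partly deleted in C57BL/6J, read 9.62 and 9.58, below all of the others (9.83 to 10.52). One other library stood apart: the 129 transgenic lung of replicate 1 had a mean level of 10.08 over 10 neutrophil genes, where every other lung had at most 8.61. Without it 2164 genes were called in the comparison of transgenic lungs, against 2186 with it.

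In transgenic lungs, C57BL/6J differed from the mean of the other 5 strains in 2186 genes, 16.2% of those tested, with 1065 higher (7.89%) and 1121 lower (8.3%). Of these, 49 were at least 2-fold higher and 36 at least 2-fold lower. The 2 C57BL/6J values lay outside the range of all 15 others in 1430 genes (10.6% of those tested), 629 above it (4.66%) and 801 below it (5.93%). Named genes are the 15 with the largest called differences each way that were both called and outside this range, a set of 543 higher (4.02%) and 610 lower (4.52%) genes. Against each of the 5 strains on its own, C57BL/6J was called the same way in 299 genes (2.21%). The call rests on the spread between mice, and with the 6 strain means as the unit (4 residual degrees of freedom) 5 genes were called and 1884 had an unadjusted p under 0.05. Those 5 were Ublcp1, Apobec3 and Rsl1, which were higher, and Sgpp2 and Myh7, which were lower. Without the first or the second transgenic C57BL/6J mouse, 747 or 851 genes were called.

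The strain stood out by genes of several kinds on the higher side. Ublcp1, a phosphatase of the nuclear proteasome, read 9.77 and 9.45 in C57BL/6J and 4.91 to 7.16 in the other transgenic lungs (median 6.62), a difference of 3.15 ± 0.46 (8.9-fold, adjusted p = 0.0002). Apobec3, a cytidine deaminase that restricts retroviruses, read 11.22 and 11.12 against 9.23 to 9.59 (median 9.48), with a difference of 1.71 ± 0.07 (adjusted p = 3.3e-10). For both genes the groups were far apart. The wild-type C57BL/6J lungs were also high, at 9.46 and 9.73 for Ublcp1 and at 10.87 and 11.08 for Apobec3.

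Igf1, the growth factor that fibroblasts and macrophages make in injured lung, read 11.85 and 11.44, against a lowest value of 9.57, a median of 10.37 and a highest of 11.25 in the other transgenic lungs. The difference was 1.35 ± 0.15 (2.55-fold, adjusted p = 2.2e-05), and the highest of the others was an A/J lung. Igf1 was also higher in wild-type C57BL/6J lungs, by 0.97 ± 0.17 (adjusted p = 0.0027), so part of the gap was there without the transgene. Ms4a7, a membrane protein of macrophages, read 9.11 and 9.15 where the others spanned 6.77 to 8.65 (median 7.45), a difference of 1.55 ± 0.11 (adjusted p = 2.1e-07). It was also higher in wild types, by 0.85 ± 0.13 (adjusted p = 0.00061), at 7.62 and 7.46 against 6.51 to 6.95. Sfn, the epithelial 14-3-3 sigma protein induced by p53, read 10.12 and 9.74, above the 7.77 to 9.41 of the other strains (median 8.56), and differed by 1.34 ± 0.15 (adjusted p = 2.7e-05). Its wild-type difference of 0.54 ± 0.17 was not called (adjusted p = 0.081).

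The remaining higher genes were Lama1, Adamts4, Rgs5, Pkhd1 and Ltbp2, which are described below with the transgene response, and F2rl2, Pttg1, Qpct, Gpr33 and Slamf7. F2rl2, the thrombin receptor PAR3, differed by 1.66 ± 0.20 and Qpct, which cyclises the ends of chemokines and peptides, by 1.49 ± 0.11. Qpct was also called higher in wild types (1.17 ± 0.12, adjusted p = 1.8e-05), and F2rl2 and Gpr33 were not called there (0.52 and 0.43). Pttg1, the securin that holds sister chromatids together, was higher in transgenic lungs by 1.57 ± 0.10 and in wild types by 2.05 ± 0.11. Slamf7, a receptor of lymphocytes and macrophages, differed by 1.30 ± 0.14 with and 1.21 ± 0.16 without the transgene. All 15 were called under each of 39 alternative settings that keep the mouse as the unit. Some of these could not lose a call: leaving out the lone wild type of another strain, or weighting the other transgenic mice equally, repeats the main fit. With strain means as the unit 2 of the 15 were called (Ublcp1 and Apobec3), and Lama1, Igf1 and Ms4a7 then had adjusted p = 0.26, 0.26 and 0.31.

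On the lower side, Cytl1, a secreted cytokine-like protein, read 8.54 and 8.60, below every other transgenic lung (9.58 to 12.06, median 10.88). The difference was -2.21 ± 0.17 (4.63-fold lower, adjusted p = 3.3e-07), and the wild-type difference was -1.15 ± 0.19 (adjusted p = 0.0014). Myh7, the slow myosin heavy chain, read 7.51 and 7.38 against 8.94 to 9.83 (median 9.26). It was lower both with and without the transgene (-1.83 ± 0.16 and -1.43 ± 0.17). Alad, an enzyme of haem synthesis, read 10.38 and 10.30 against 11.42 to 12.36 (median 11.81), with differences of -1.54 ± 0.11 and -1.16 ± 0.12 in transgenic and wild-type lungs.

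Lrat makes the retinyl esters in which cells store vitamin A. It read 9.25 and 10.25 in the transgenic C57BL/6J lungs, a wide gap between 2 mice, and 10.34 to 12.45 in the others (median 11.73), with a difference of -1.69 ± 0.24 (adjusted p = 0.00014). Fgfr4, a fibroblast growth factor receptor of alveolar epithelium, read 8.17 and 8.42 against 8.81 to 10.18 (median 9.92), and differed by -1.50 ± 0.15 (adjusted p = 4.9e-06). The lowest of the others was an A/J lung for both genes. Il1a, an alarmin cytokine, read 7.38 and 7.31 where the others spanned 7.90 to 9.84 (median 9.03), with a difference of -1.69 ± 0.24 (adjusted p = 0.00013). Bche, butyrylcholinesterase, read 6.63 and 6.77 against 7.49 to 9.79 with a median of 8.12 (-1.70 ± 0.20). In wild types Fgfr4 was also called lower (-0.78 ± 0.16, adjusted p = 0.009), and Lrat, Il1a and Bche were not called (-0.75, -0.88 and -0.63).

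Of the others on this side, Gbp2b, an interferon-induced GTPase, had a difference of -1.84 ± 0.25, the glutamate receptor subunits Gria1 and Grin2c had -1.44 ± 0.18 and -1.31 ± 0.17, and Hal, which breaks down histidine, had -1.39 ± 0.16. Abca17 and Atp13a4, both transporters, had -1.30 ± 0.17 and -1.28 ± 0.14. In wild types Gbp2b and Hal (-1.30 each), Atp13a4 (-0.99), Abca17 (-0.83) and Grin2c (-0.82) were also called lower, and Gria1 (-0.58) was not. For Gbp2b the wild-type A/J lung read 6.83, level with 6.84 and 7.23 in wild-type C57BL/6J. Fbp2, the muscle form of fructose bisphosphatase, had -1.72 ± 0.35 and was the 1 gene of the 30 whose call was lost when a mouse was left out, with either transgenic C57BL/6J mouse. Cyp4b1 is described with the response.

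**Figure D1:**
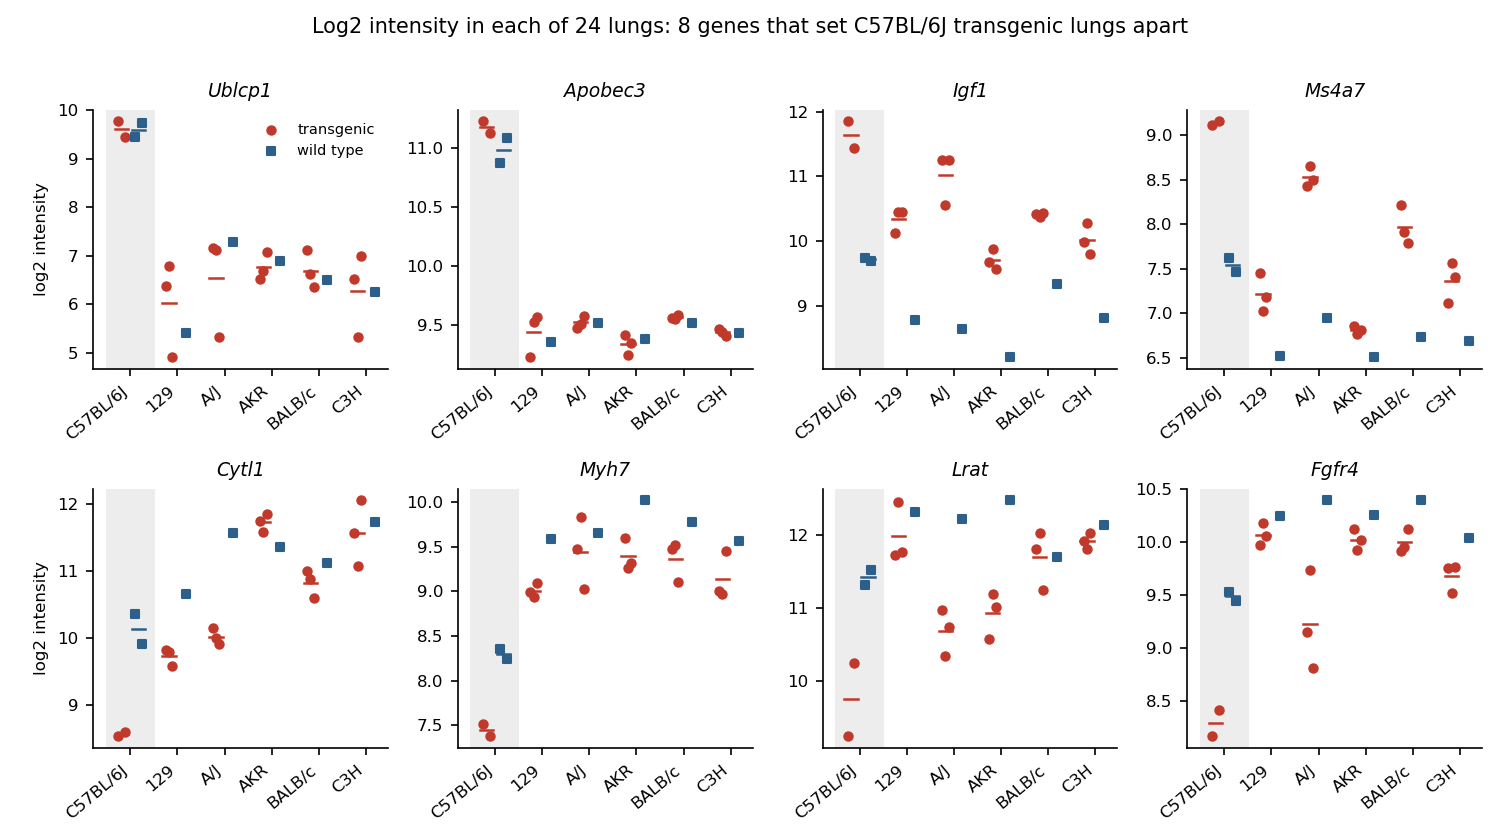
Log2 intensity (y axis) of 8 genes in each of 24 lungs, by strain (x axis), with transgenic lungs as red circles, wild types as blue squares and bars at the mean of groups with over 1 mouse; the C57BL/6J columns are shaded. In all 8 genes the C57BL/6J lungs lay outside the range of the other strains' lungs of the same genotype, with and without the transgene. The wild-type difference of Lrat was not called. Igf1 and Ms4a7 were also higher with than without the transgene in every strain and reached their highest values in C57BL/6J (11.85 and 9.15).

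Without the transgene, C57BL/6J differed from the 5 other wild-type lungs in 711 genes (5.27% of those tested), 410 higher (3.04%) and 301 lower (2.23%), while the 2 values lay outside the range of the other 5 in 2453 genes (18.2%). When each array was centred on its median the split turned, to 339 higher and 623 lower. Among genes called in transgenic lungs, 387 were also called the same way in wild types, which is 17.7% of the first set and 54.4% of the second, and 6 were called the opposite way. The means in these comparisons share no mouse. Both tests take each gene's spread from the same fit to all lungs, so the calls are not independent. With wild types fitted alone 83 genes were called in wild types, and the overlap of those genes with the transgenic calls was not tested. Of the 2186 genes, 84.5% had a wild-type difference of the same sign, called or not, against 67.2% of all genes tested. Across all genes the transgenic and wild-type differences had a Pearson correlation of 0.61, given as a description because genes are not independent replicates and the mice of a strain share alleles and probes. A probe that binds a strain's variant less well gives the same pattern as a lower RNA level, and the 2 cannot be told apart here.

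The largest wild-type differences were of genes that C57BL/6J kept in both genotypes and of genes it did not. Ublcp1 and Pttg1 were in both. Sox11, a developmental transcription factor, read 8.83 and 9.46 in wild-type C57BL/6J lungs and 6.74 to 7.14 in the other wild types, a difference of 2.17 ± 0.15 (adjusted p = 1.5e-07). In transgenic lungs it read 7.46 and 7.64, still above the others (6.27 to 7.03) but by 0.73 ± 0.13 (adjusted p = 0.0014). Ifi206 and Ifi213, interferon-inducible genes of the p200 family whose members are close in sequence, were higher by 2.26 ± 0.18 and 2.26 ± 0.27 in wild types, and by 1.02 ± 0.16 and 1.14 ± 0.25 in transgenic lungs. Ighg3, an immunoglobulin constant region, was uneven, at 8.78 and 10.48 in wild-type and 5.96 and 9.92 in transgenic C57BL/6J lungs, and its call was lost without the second wild-type mouse.

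Lower in wild types were H2-Ea (-4.82 ± 0.12), the steroid enzyme Hsd3b2 (-1.76 ± 0.22), the axonemal dynein Dnah8 (-1.44 ± 0.16), the neural adhesion gene Cntn1 (-1.44 ± 0.24), Myh7 and the sodium pump subunit Atp1a4 (-1.37 ± 0.15). Dnah8 kept the gap in transgenic lungs (-1.11 ± 0.14), with C57BL/6J at 7.03 and 7.02 and all others at 7.30 or above. The number of wild-type calls rested on few mice: 314 genes were called without the first wild-type C57BL/6J mouse, 192 without the second, and 83 when the 7 wild types were fitted alone.

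**Figure D2:**
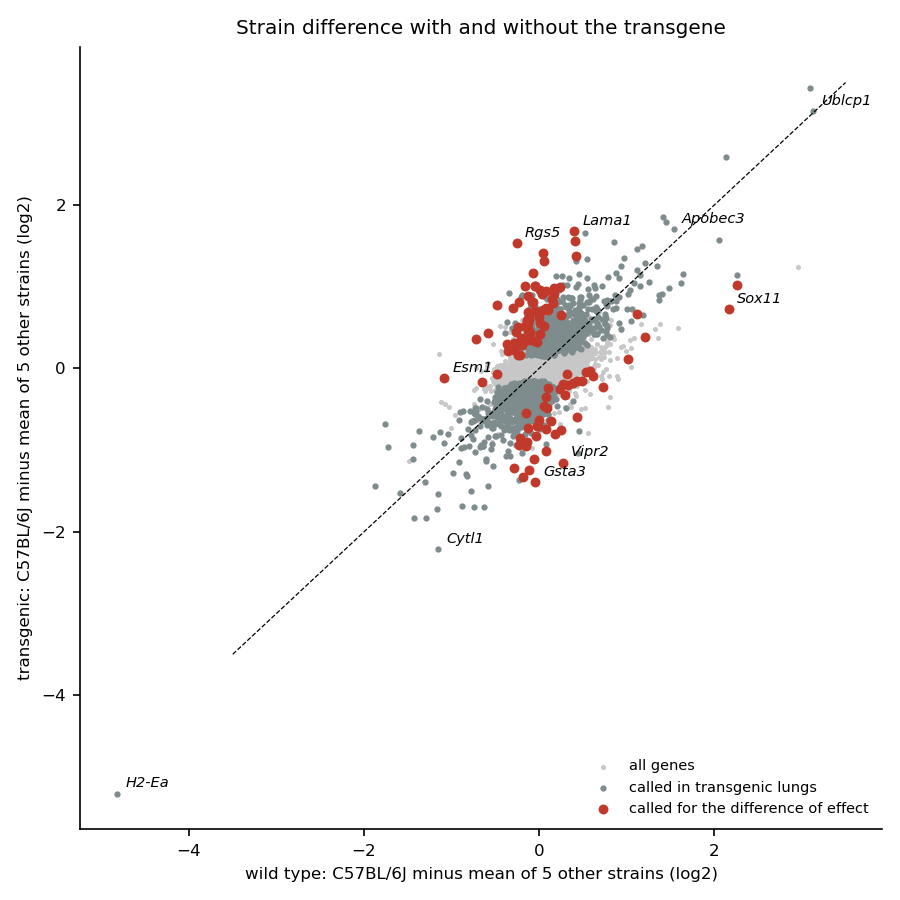
Difference between C57BL/6J and the mean of 5 other strains in transgenic lungs (y axis, log2) against that in wild-type lungs (x axis, log2) for 13499 genes; dark grey points were called in transgenic lungs, red points were called for the difference of the transgene effect, and the dashed line marks equal differences. Ublcp1 and Apobec3 lie near the line, Rgs5 and Lama1 above it, and Vipr2, Gsta3 and Sox11 below it.

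The response to the transgene was compared as the difference between transgenic and wild-type C57BL/6J lungs minus the mean of the same difference in the other 5 strains. It was called in 109 genes (0.807% of those tested), 66 with a higher value in C57BL/6J (0.489%) and 43 with a lower one (0.319%). With arrays centred on their medians the split was 76 to 31. The test of the transgene within C57BL/6J called 61 of the 66 higher and 41 of the 43 lower (6.96% and 7.39% over all genes), and that in the mean of the other strains called 36 and 20 (10.8% and 11.3%). The choice of these genes by the difference of effect largely fixes the C57BL/6J counts, and nothing is read from them. At an unadjusted p under 0.05 there were 1616 genes. Leaving out a C57BL/6J mouse left 29 and 16 calls (wild type, first and second) and 5 calls (first transgenic mouse), whereas leaving out the wild-type A/J mouse gave 201. Leaving out other mice gave 68 (wild-type AKR/J), 66 and 72 (the first and the third transgenic AKR/J mouse), 72 and 61 (transgenic BALB/cJ, first and second), 70 (transgenic C3H, first) and 62 (wild-type C3H). Named genes are the 12 largest called each way whose effect in C57BL/6J lay outside the range of the other 5 strains' effects, as it did in 32.5% of all genes, and 5 of these 24 were called under all 37 alternative settings run for them: Rgs5, Mark1, Dkk2, Shc4 and Vipr2.

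For 4 of those 5 genes the 250 bases before the transcription start are given, as the promoters of genes whose calls held throughout; Mark1 has 2 starts listed and is left out. The sequences are from RefSeq (GRCm38.p6), on the gene's strand and 5′ to 3′: Rgs5 (chr1:169655251-169655500, plus strand), Dkk2 (chr3:132085042-132085291, plus strand), Shc4 (chr2:125724149-125724398, minus strand) and Vipr2 (chr12:116077476-116077725, plus strand). The motifs searched, on both strands, were the Smad-binding core CAGAC, the AP-1 site TGANTCA and the TEAD site CATTCC. Capitals mark a match.
Rgs5: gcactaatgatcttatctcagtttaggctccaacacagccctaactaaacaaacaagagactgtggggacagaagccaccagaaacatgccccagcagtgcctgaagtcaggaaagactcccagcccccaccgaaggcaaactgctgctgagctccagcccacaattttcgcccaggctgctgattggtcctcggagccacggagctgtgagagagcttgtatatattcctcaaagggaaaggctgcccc
Dkk2: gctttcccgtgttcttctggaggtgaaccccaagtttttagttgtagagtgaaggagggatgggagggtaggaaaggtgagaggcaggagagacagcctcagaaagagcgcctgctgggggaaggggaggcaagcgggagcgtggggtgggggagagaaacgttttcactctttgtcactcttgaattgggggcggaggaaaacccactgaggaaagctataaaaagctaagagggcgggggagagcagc
Shc4: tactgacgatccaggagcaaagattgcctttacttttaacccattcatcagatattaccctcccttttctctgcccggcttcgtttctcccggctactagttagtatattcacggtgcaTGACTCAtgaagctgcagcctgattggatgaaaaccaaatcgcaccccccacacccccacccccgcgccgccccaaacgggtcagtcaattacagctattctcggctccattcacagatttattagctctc
Vipr2: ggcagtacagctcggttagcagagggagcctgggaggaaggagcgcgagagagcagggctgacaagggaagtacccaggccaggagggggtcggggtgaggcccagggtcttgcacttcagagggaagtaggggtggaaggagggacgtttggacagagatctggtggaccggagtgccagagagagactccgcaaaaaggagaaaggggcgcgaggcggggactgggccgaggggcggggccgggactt
The single match was to the AP-1 site in Shc4, which starts 131 bases before the transcription start. Among 27025 promoters of the same length, 42.1% held CAGAC, 6.9% TGANTCA and 12.6% CATTCC. A match is a description of letters, and the absence of one in this window says nothing of the factor.

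Rgs5, an inhibitor of G protein signalling that marks pericytes, was at 8.07 and 8.22 in wild-type C57BL/6J lungs and at 10.24 and 10.19 in transgenic ones. In the other strains wild types spanned 7.66 to 8.71 and transgenic lungs 7.71 to 9.45. The transgene effect was 2.07 in C57BL/6J and 0.28 in the mean of the others, a difference of 1.79 ± 0.21 (adjusted p = 0.0008), and without the transgene C57BL/6J did not differ by the test (-0.26 ± 0.16, adjusted p = 0.41). The effect in each of the 5 other strains lay between 0.25 and 0.33. The transgenic groups did not overlap, and the wild types did.

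Dkk2, a secreted modulator of Wnt receptors, read 8.52 and 8.46 against 7.31 to 7.94 in the other transgenic lungs (median 7.45), while all wild types lay between 7.28 and 7.64. Its effect was 1.15 in C57BL/6J and -0.01 in the others (difference 1.16 ± 0.10, adjusted p = 4.9e-05). Mark1, a microtubule-affinity kinase, read 9.79 and 9.22 against 8.07 to 8.72 (median 8.29), with a difference of effect of 1.24 ± 0.14 (adjusted p = 0.00055). Shc4, an adaptor of receptor tyrosine kinases, read 8.12 and 7.89 against 6.73 to 7.38 (median 6.97), with a difference of 1.05 ± 0.12 (adjusted p = 0.00055). For these genes wild-type C57BL/6J lungs lay among or next to the other wild types, and the transgenic ones lay above all others.

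Lama1, a laminin chain of embryonic basement membranes, read 9.72 and 9.18 in transgenic C57BL/6J lungs. The other transgenic lungs fell into A/J, at 8.55 to 9.08, and the remaining strains, at 7.34 to 7.84. The effect was 1.85 in C57BL/6J, 1.57 in A/J and 0.58 in the mean of 5 strains, and the difference of 1.28 ± 0.19 (adjusted p = 0.0054) was not called without the first transgenic or the second wild-type C57BL/6J mouse. Ltbp2, a matrix protein of the latent TGF-β binding family, read 12.57 and 12.33 against 10.45 to 12.03 (median 11.02), and again A/J came closest, at 11.76 or above. The transgene raised it by 2.53 in C57BL/6J and by 1.28 in the others, a difference of 1.25 ± 0.23 (adjusted p = 0.017). That call was lost without the first transgenic or the second wild-type C57BL/6J mouse. It was also lost without C3H, with replicate number as a block and when every probe set was tested.

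Adamts4, an aggrecanase, read 9.26 and 8.87 against 7.16 to 8.06 (median 7.50), with a difference of effect of 1.14 ± 0.16 (adjusted p = 0.0032) that was lost without the first transgenic C57BL/6J mouse. It was also called higher in wild-type C57BL/6J lungs (0.41 ± 0.12, adjusted p = 0.047). Htr2b, a serotonin receptor of fibroblasts and vessel cells, was a different case. Its transgenic values, 7.93 and 7.77, lay inside the range of the others (6.64 to 8.51), and its effect was 0.86 in C57BL/6J and -0.23 elsewhere (difference 1.09 ± 0.17, adjusted p = 0.006), from a wild-type level that was lower in C57BL/6J (-0.73 ± 0.13). Its call needed the first transgenic and the first wild-type C57BL/6J mouse.

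Vipr2, a receptor for vasoactive intestinal peptide, went the other way. It read 10.28 and 10.12 in wild-type C57BL/6J lungs, among the other wild types (9.19 to 10.70), and 8.23 and 8.81 in transgenic ones, at or below the lowest of the others (8.81, with a median of 9.93 and a highest of 10.31). The effect was -1.68 in C57BL/6J and -0.26 in the others, a difference of -1.42 ± 0.17 (adjusted p = 0.0008). The A/J and AKR/J transgenic lungs were also low (8.81 to 9.13 and 8.91 to 9.26), and so were their wild types (9.50 and 9.19).

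Gsta3 and Cyp4b1, a glutathione transferase and a cytochrome P450 that lung epithelium uses against foreign compounds, fell with the transgene in C57BL/6J and in the mean of the other strains, with negative effects in all 6 strains and the lowest in C57BL/6J. Gsta3 read 10.94 and 10.60 without and 8.37 and 8.58 with the transgene, with effects of -2.29 in C57BL/6J and -0.95 in the others (difference -1.34 ± 0.24, adjusted p = 0.019). Cyp4b1 read 12.65 and 12.76 without and 10.37 and 10.86 with it, against 10.86 to 12.37 in the other transgenic lungs, and its effects were -2.09 and -0.95 (difference -1.14 ± 0.18, adjusted p = 0.0058). In both genes A/J lay next, with effects of -2.08 and -1.78, and the Gsta3 values overlapped those of transgenic A/J lungs (8.44 to 9.15). Both calls were lost without the first transgenic or the second wild-type C57BL/6J mouse, and that of Gsta3 also without the first wild type, without AKR/J, without BALB/cJ and when every probe set was tested.

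Atp6v1c2, a subunit of the proton pump, had opposite signs: the transgene effect was -0.49 in C57BL/6J (adjusted p = 0.021) and 0.54 in the mean of the others (adjusted p = 3.2e-05), a difference of -1.03 ± 0.15 (adjusted p = 0.0044). Transgenic C57BL/6J lungs read 9.19 and 9.52, just below the others (9.56 to 10.55), while wild-type C57BL/6J lungs were higher than other wild types (0.44 ± 0.11, adjusted p = 0.032). The complement component C7 also fell in C57BL/6J (-0.82, adjusted p = 0.00058), where the mean effect in the others was 0.16 and not called (difference -0.98 ± 0.15, adjusted p = 0.0058). Ednrb, an endothelin receptor of alveolar capillaries, fell in both, by 1.59 in C57BL/6J and by 0.65 in the others, with transgenic values of 9.29 and 9.64 against 9.82 to 11.22. All 3 calls were lost without the first transgenic C57BL/6J mouse, and that of C7 also without the first wild type. The Ednrb call was also lost without either C57BL/6J wild type, without the AKR/J wild type and without AKR/J. Replicate number as a block and the test of every probe set lost it too.

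**Figure D3:**
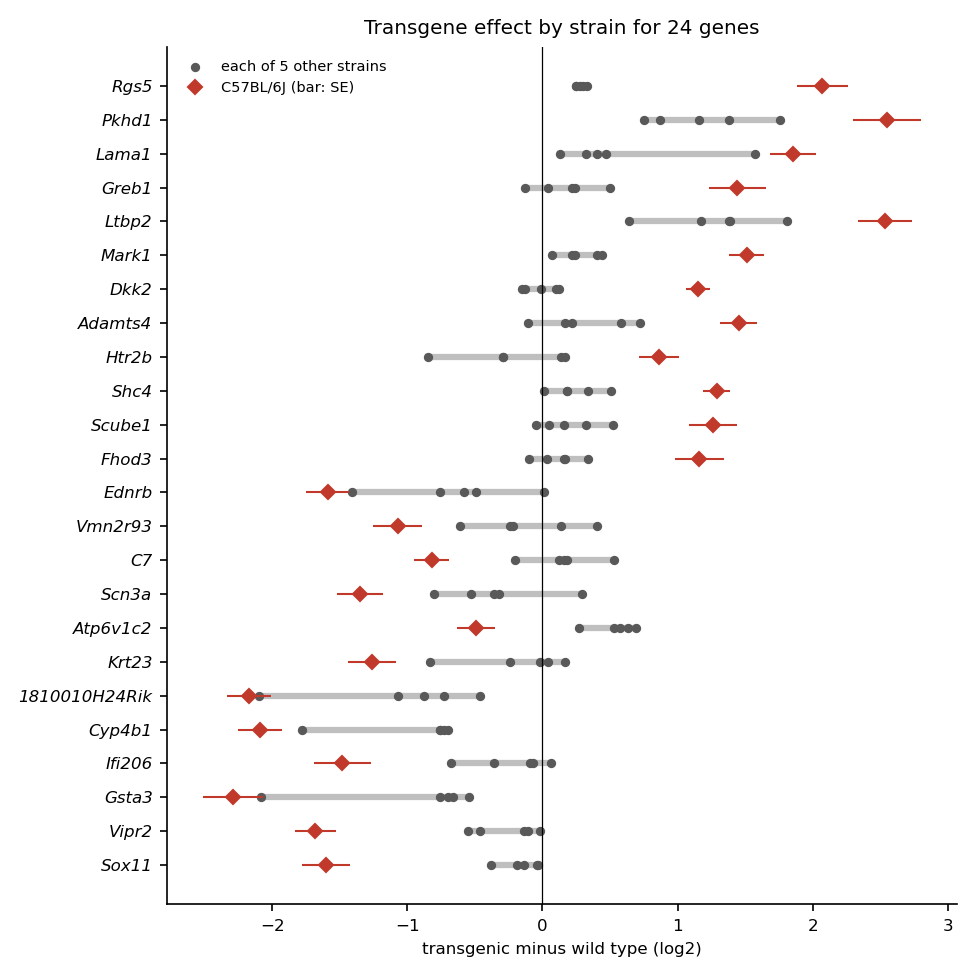
Transgene effect (transgenic minus wild type, x axis, log2) of 24 genes (y axis) in C57BL/6J (red diamonds, bars of 1 SE) and in each of 5 other strains (grey points joined by a bar over their range). All red diamonds lie outside the grey range by the rule that chose the genes; the gap is wide in Rgs5 and Dkk2 and narrow in Lama1, Gsta3 and 1810010H24Rik, where A/J lies next to C57BL/6J.

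**Figure D4:**
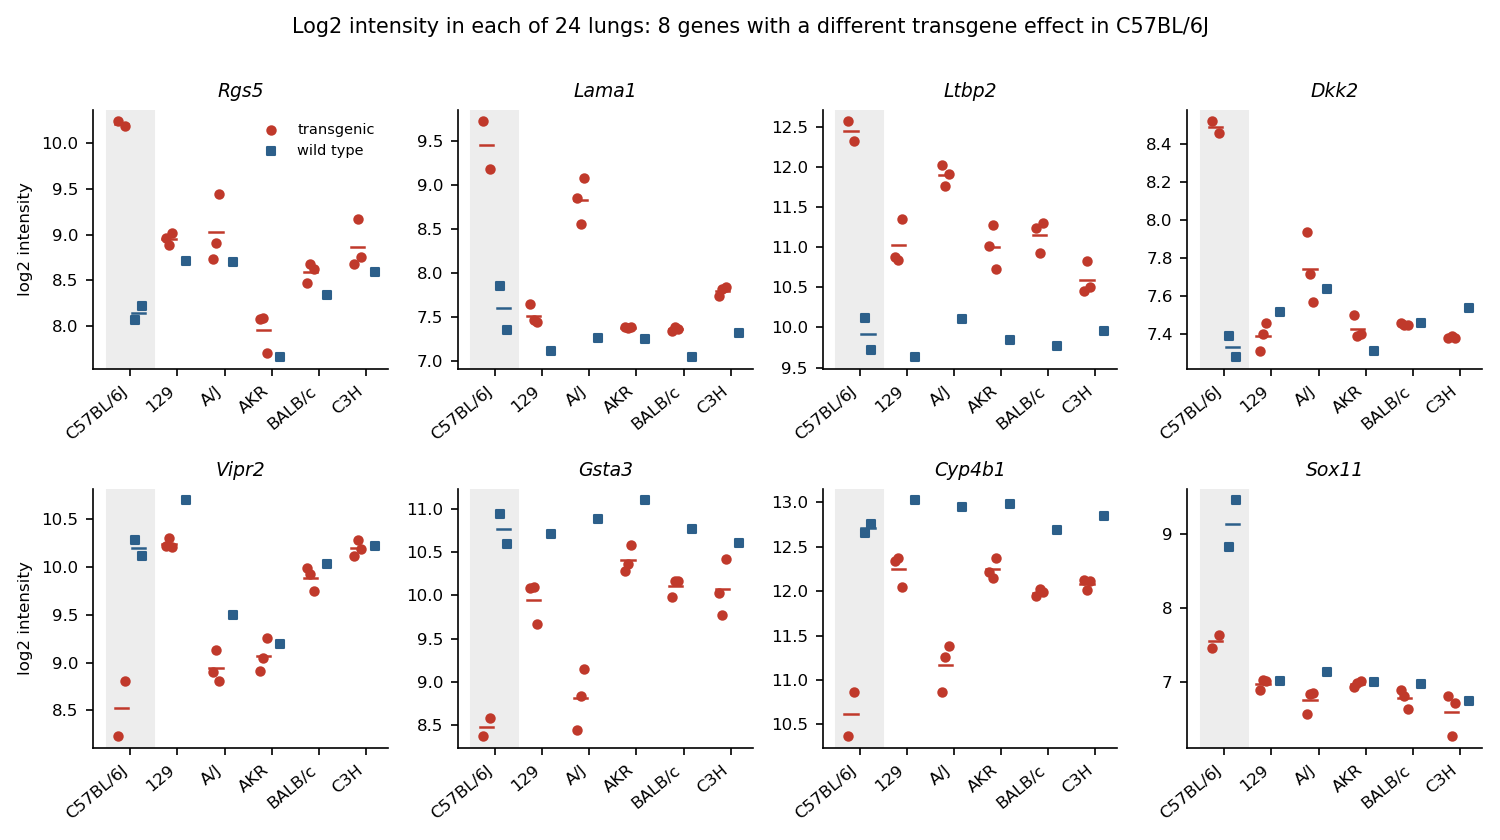
Log2 intensity (y axis) of 8 genes in each of 24 lungs, by strain (x axis), with transgenic lungs as red circles, wild types as blue squares and bars at the mean of groups with over 1 mouse. In Rgs5, Ltbp2 and Dkk2 transgenic C57BL/6J lungs lie highest (10.24, 12.57 and 8.52); in Sox11 the wild-type C57BL/6J lungs lie highest (9.46).

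Gene lists are described by the number of their measured members called and by their median difference, beside the 7.89% higher and 8.3% lower of all genes and their median of -0.03 in transgenic lungs. The same shares are 3.04% and 2.23% for wild types, 6.96% and 7.39% for the transgene in C57BL/6J, and 10.8% and 11.3% for the transgene in the other strains. In the list of TGF-β ligands, activators and binding proteins 9 of 12 genes were higher in transgenic C57BL/6J lungs and 0 lower, with a median of 0.50, and 6 lay above all 15 others, as 4.66% of all genes did. The mean level over the list was 11.12 and 11.27 in C57BL/6J and 10.46 to 11.04 in the other transgenic lungs. In wild types 1 of the 12 was higher. The ligand Tgfb3 read 11.78 and 11.85 against 10.42 to 11.28 (0.87 ± 0.12, adjusted p = 0.00011). It was the 1 that was higher in wild types (0.48 ± 0.13, adjusted p = 0.042). Its difference of effect was not called (0.39 ± 0.18, adjusted p = 0.39), and over the list that difference was called in 1 of the 12, Ltbp2. Of the integrin chains that release TGF-β, Itgb8 differed by 0.87 ± 0.17, Itgb3 by 0.68 ± 0.09, Itgb6 by 0.52, Itgav by 0.48 and Itgb5 by 0.43. The ligand Tgfb2 and the binding protein Ltbp3 completed the 9 (0.29 and 0.37). Thbs1, an activator, and Nrros, which holds the latent form on microglia and macrophages, were not called (0.53 and -0.35, adjusted p = 0.056 and 0.06). Without the first transgenic C57BL/6J mouse 4 of the 12 were called.

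Receptors, Smads and inhibitors did not move one way, with 3 of 11 higher and 3 lower and a median of -0.01. Pmepa1, a feedback inhibitor, was higher by 0.40 ± 0.11 and Skil, a Smad corepressor, by 0.27 ± 0.08. The endothelial receptors Acvrl1 and Eng were lower (-0.41 ± 0.06 and -0.37 ± 0.08). Of 16 targets and matricellular genes 5 were higher and 0 lower (median 0.22), and 3 had a larger transgene effect in C57BL/6J: Thbs4 (0.96 ± 0.18), fibronectin Fn1 (0.71 ± 0.10) and Thbs2 (0.62 ± 0.12). Without the first transgenic C57BL/6J mouse 0 of these 3 were called, and without A/J 8 of the 16 were higher. A/J was close for Thbs4 (effect 1.21, against 1.30 in C57BL/6J) and above for Thbs2 (1.06 against 0.96), and its mean level over the list was 10.29 to 10.48, against 10.25 and 10.40 in C57BL/6J and at most 10.10 in the rest. Fn1 read 13.93 and 13.82, inside the range of the others (12.88 to 13.96), from a wild-type level that was lower in C57BL/6J (-0.27 ± 0.07, adjusted p = 0.049). Tgfbi, a TGF-β induced adhesion protein, was higher by 0.75 ± 0.13.

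Collagens and their enzymes were higher in 6 of 24 and lower in 1 (median 0.17), with Col5a2 at 0.72 ± 0.11, Col1a1 at 0.69 ± 0.10, the cross-linking enzyme Loxl4 at 0.48 ± 0.08 and Col3a1 at 0.47 ± 0.09. Col1a1 read 12.24 and 11.92, which overlapped the highest of the others (12.19), and Col1a1 and Col3a1 were also higher in wild types (0.45 ± 0.11 and 0.46 ± 0.10). The difference of effect was called in 0 of the 24. A/J had a like mean level over the list (9.67 to 9.76, against 9.62 and 9.73 in C57BL/6J and at most 9.57 in the rest). Without the A/J strain 13 of the 24 were higher, and without the first transgenic C57BL/6J mouse 3. Among elastic fibre and proteoglycan genes 8 of 18 were higher and 3 lower (median 0.16). The mean level over this list was 10.23 and 10.30 in C57BL/6J, 10.08 to 10.28 in A/J and at most 10.20 in the rest. Fmod, which binds collagen fibrils, read 11.05 and 10.48 against 9.51 to 10.56 (0.86 ± 0.17). The proteoglycan Vcan was higher by 0.86 ± 0.20, though its values (9.65 and 9.73) lay inside the range of A/J (9.31 to 9.86). Fibulin Fbln1 was higher by 0.73 ± 0.15. Efemp1, another fibulin, read 10.75 and 11.12, below all others (11.19 to 11.89), and was lower (-0.73 ± 0.09), with a lower effect (-0.60 ± 0.13, adjusted p = 0.044). The call for its effect was lost without the first transgenic C57BL/6J mouse and with arrays centred on their medians. Leaving out the first or second transgenic C57BL/6J mouse gave 2 or 5 higher among these 18.

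Of 12 markers of alveolar type 1 cells, the flat cells of gas exchange, 7 were lower and 0 higher in transgenic lungs (median -0.44), 0 were called in wild types, and 3 had a lower transgene effect in C57BL/6J. A/J overlapped C57BL/6J in the mean level over the list (11.53 to 11.67, against 11.38 and 11.54), with the rest at 11.60 to 12.16. Sec14l3 read 11.62 and 11.83 against 12.06 to 12.69 (-0.70 ± 0.07, adjusted p = 3.9e-06), and its effect was -0.88 in C57BL/6J and -0.19 in the others (difference -0.69 ± 0.10, adjusted p = 0.0039). Ager, the receptor that defines these cells, read 12.69 and 12.76, below all 15 others (13.01 to 13.54), with a difference of -0.54 ± 0.06 and a difference of effect of -0.40 ± 0.09 (adjusted p = 0.044). Spock2, a matrix proteoglycan, had values of -0.48 ± 0.06 and -0.57 ± 0.09. It read 11.07 and 11.03, near A/J (11.16 to 11.32) and BALB/cJ (11.16 to 11.23), whereas AKR/J and C3H lay at 11.80 to 12.04. Clic5, Emp2, Aqp5 and Lmo7 were lower by the test of transgenic lungs alone. Without the first or second transgenic C57BL/6J mouse 5 or 6 of the 12 were lower, and without the first 0 of the 3 effects were called. In whole lung, fewer cells of a type and less RNA per cell cannot be told apart.

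Of 16 markers of alveolar type 2 cells, the surfactant makers, 5 were lower and 0 higher (median -0.20), among them Lyz1 (-1.07 ± 0.20), the lipid transporter Abca3 (-0.62 ± 0.11) and the transcription factor Etv5 (-0.55 ± 0.11). Sftpa1 and Sftpd were not called (-0.01 and -0.04). Without the first transgenic C57BL/6J mouse 0 of the 16 were lower, and the second mouse had values nearer to the other strains in Lyz1 (12.03 and 12.63), Abca3 (11.01 and 11.26) and Etv5 (10.14 and 10.60). Markers of transitional epithelium, an intermediate state of injured alveoli, were higher in 5 of 13 and lower in 1 (median 0.02), with Sfn, Sprr1a (0.82 ± 0.20), Clu (0.67 ± 0.12) and Mdk (0.58 ± 0.12) leading. The mean level over the list was higher in A/J (10.58 to 10.70) than in C57BL/6J (10.43 and 10.52), and Clu was alike (11.43 to 11.80 in A/J, 11.62 in both C57BL/6J lungs). Leaving out either transgenic C57BL/6J mouse gave 3 of the 13 higher.

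Xenobiotic and aldehyde metabolism had 12 of 28 genes lower and 2 higher (median -0.19), and in wild types 0 were lower and 1 higher (median 0.06), near the shares of all genes. A/J was as low: the mean level over the list was 9.50 to 9.61 in A/J, 9.55 and 9.63 in C57BL/6J and 9.86 or above in the rest of the transgenic lungs. Beside Gsta3 and Cyp4b1 the flavin monooxygenases Fmo2 (-0.66 ± 0.12) and Fmo1 (-0.59 ± 0.10) were lower, and so were Gstm1, Gstm3, Gstm6, Cbr2, Fmo5, Aox4, Aldh1a1 and Aldh3a1. Probes for glutathione transferases can share sequence between copies, so the member measured is uncertain. Retinoid genes were lower in 7 of 15 and higher in 0 (median -0.20). After Lrat these were the nuclear receptor Rxrg (-0.77 ± 0.17), Rarres1 (-0.59 ± 0.16), the retinoic acid making enzyme Aldh1a1 (-0.52 ± 0.09), Dhrs3, Tgm2 and Rarg. Rarres1 read 6.12 and 6.22 and overlapped C3H (6.15 to 6.43), while AKR/J and BALB/cJ lay at 6.84 or above. Aldh1a1 read 11.61 and 11.88 and overlapped A/J (11.64 to 11.71). In wild types 0 of the 15 were called and the median was -0.09. The lower counts without the first and second transgenic C57BL/6J mouse were 4 and 7 for xenobiotic genes, and 2 and 2 for retinoid genes.

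Endothelial genes were lower in 10 of 23 and higher in 1 (median -0.20), and in wild types 5 were lower and 1 higher (median -0.17). A/J was at a like mean level over the list (10.70 to 10.88, against 10.80 and 10.85 in C57BL/6J), with the rest at 10.97 to 11.22. Ednrb led, followed by Clec14a (-0.67 ± 0.15) and Icam2 (-0.58 ± 0.08). Esm1, a proteoglycan of sprouting endothelium, differed in wild types and not by the test in transgenic lungs: wild-type C57BL/6J lungs read 7.57 and 7.69 against 7.68 to 9.37 (-1.08 ± 0.12), transgenic ones 7.40 and 7.11 against 6.88 to 8.02 (-0.12 ± 0.11, adjusted p = 0.51), and the difference of effect was 0.96 ± 0.17 (adjusted p = 0.013). That call was lost without the first transgenic or the first wild-type C57BL/6J mouse. Without the first or second transgenic C57BL/6J mouse 6 of the 23 were lower in each case.

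Of 16 fibroblast genes 7 were lower and 1 higher (median -0.09). Wnt5a, a non-canonical Wnt ligand, read 9.94 and 9.61 against 8.17 to 9.29 and was the 1 that was higher (1.11 ± 0.15, adjusted p = 9.9e-05). Tcf21 read 9.34 and 9.62 against 9.78 to 11.10 (-1.02 ± 0.13), and Pdgfra and Fgf10, which like Tcf21 mark alveolar fibroblasts, were lower (-0.49 ± 0.09 and -0.42 ± 0.08). Tcf21 was lower in wild types also (-0.73 ± 0.15, adjusted p = 0.0072). Smooth muscle and pericyte genes had 2 of 9 higher and 0 lower (median -0.04): Myocd, the smooth muscle coactivator (0.66 ± 0.12, with a difference of effect of 0.77 ± 0.17, adjusted p = 0.048), and the pericyte receptor Pdgfrb (0.41 ± 0.07). The contractile genes Acta2 and Myh11 were not called (0.24 and -0.15), and the pericyte genes Higd1b and Cox4i2 stood at 0.11 and -0.04 beside Rgs5. Without the first transgenic C57BL/6J mouse 3 of the fibroblast genes were lower and 0 of the smooth muscle genes higher. The call for the effect of Myocd was lost without that mouse and with replicate number as a block.

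Among immune genes, markers of monocytes and interstitial macrophages were higher in 7 of 13 and lower in 0 (median 0.33), with Ms4a7, the complement subunits C1qc (0.89 ± 0.13) and C1qb (0.67 ± 0.13) among them, and in wild types 3 were higher (median 0.23). The list's mean level was 9.52 and 9.61 in transgenic C57BL/6J, higher in all 3 A/J lungs (9.67 to 9.78) and at most 9.21 in the rest, and C1qc and C1qb had their highest values in A/J (11.17 and 12.15). Without the first transgenic C57BL/6J mouse 4 of the 13 were called. MHC class II genes were higher in wild-type C57BL/6J lungs in 9 of 10, with H2-Ea lower, and in transgenic lungs in 5 of 10. H2-Ab1, the class II beta chain, was higher by 1.06 ± 0.11 in wild types and by 0.73 ± 0.10 in transgenic lungs. It was as high in 129, which shares the haplotype: transgenic C57BL/6J minus transgenic 129 was -0.02 (adjusted p = 0.95), and the wild-type 129 lung read 12.41 against 12.77 and 12.46. The transgene raised 8 of the 10 in the mean of the other strains and 1 in C57BL/6J, while the difference of effect was called in 0. Class II and other H2 genes differ in sequence between these strains, so probe binding and RNA level cannot be told apart. With either transgenic C57BL/6J mouse left out 2 of the 10 were higher in transgenic lungs, and without the first or second wild type 5 or 2 were higher in wild types. When the wild types were fitted alone 0 of the 10 were called either way.

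Of 21 interferon-induced genes, 9 were higher and 1 lower in wild-type C57BL/6J lungs (median 0.44), and 2 were higher and 3 lower in transgenic ones (median 0.03). The transgene lowered 8 and raised 1 in C57BL/6J, and lowered 1 and raised 1 in the mean of the others, with 0 called for the difference of effect. Iigp1, a GTPase that attacks parasite vacuoles, was higher with and without the transgene (1.00 ± 0.11 and 1.15 ± 0.12). Without the first or second wild-type C57BL/6J mouse 3 or 5 of the 21 were higher in wild types. T and NK cell genes were called in 0 of 14 in transgenic lungs, and chemokines and cytokines in 2 of 34, Osm and Cxcl16.

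Cell cycle genes were higher in 14 of 29 and lower in 1 (median 0.37), and in wild types 5 were higher (median 0.29), with 0 called for the difference of effect. Top2a, which untangles DNA, read 8.66 and 8.58 against 7.03 to 9.51, and Kif11, a spindle motor, 8.73 and 8.64 against 7.20 to 9.65. C57BL/6J lay inside the range of the others and below A/J: the list's mean level was at least 7.87 in C57BL/6J, 8.20 to 8.72 in A/J and at most 7.61 in the other transgenic strains. Without A/J 24 of the 29 were called higher, without 129, AKR/J or BALB/cJ 9 were, and without the first or second transgenic C57BL/6J mouse 1 or 6. In wild types the count was 9 without the A/J mouse, 3 without the AKR/J mouse and 1 without either C57BL/6J mouse, and it was 8 or 9 without the first or second transgenic A/J mouse, which enter only through the spread.

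Lists of other tissues and cells moved beside these results. Heart muscle genes, which in lung come from the sleeves of pulmonary veins, were lower in 5 of 10 and higher in 0 (median -0.51), led by Myl4, Myh6 and Myl7 (-0.98, -0.96 and -0.96), with a mean level of 9.10 and 9.20 in transgenic C57BL/6J, 9.08 to 9.21 in A/J and 9.15 to 10.30 in the rest, and 3 or 2 were lower without the first or second transgenic C57BL/6J mouse. Their part in the difference of Myh7 was not tested. Neutrophil genes had 1 of 10 higher (median -0.48), with levels of at most 7.84 in C57BL/6J against 7.77 to 10.08.

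**Figure D5:**
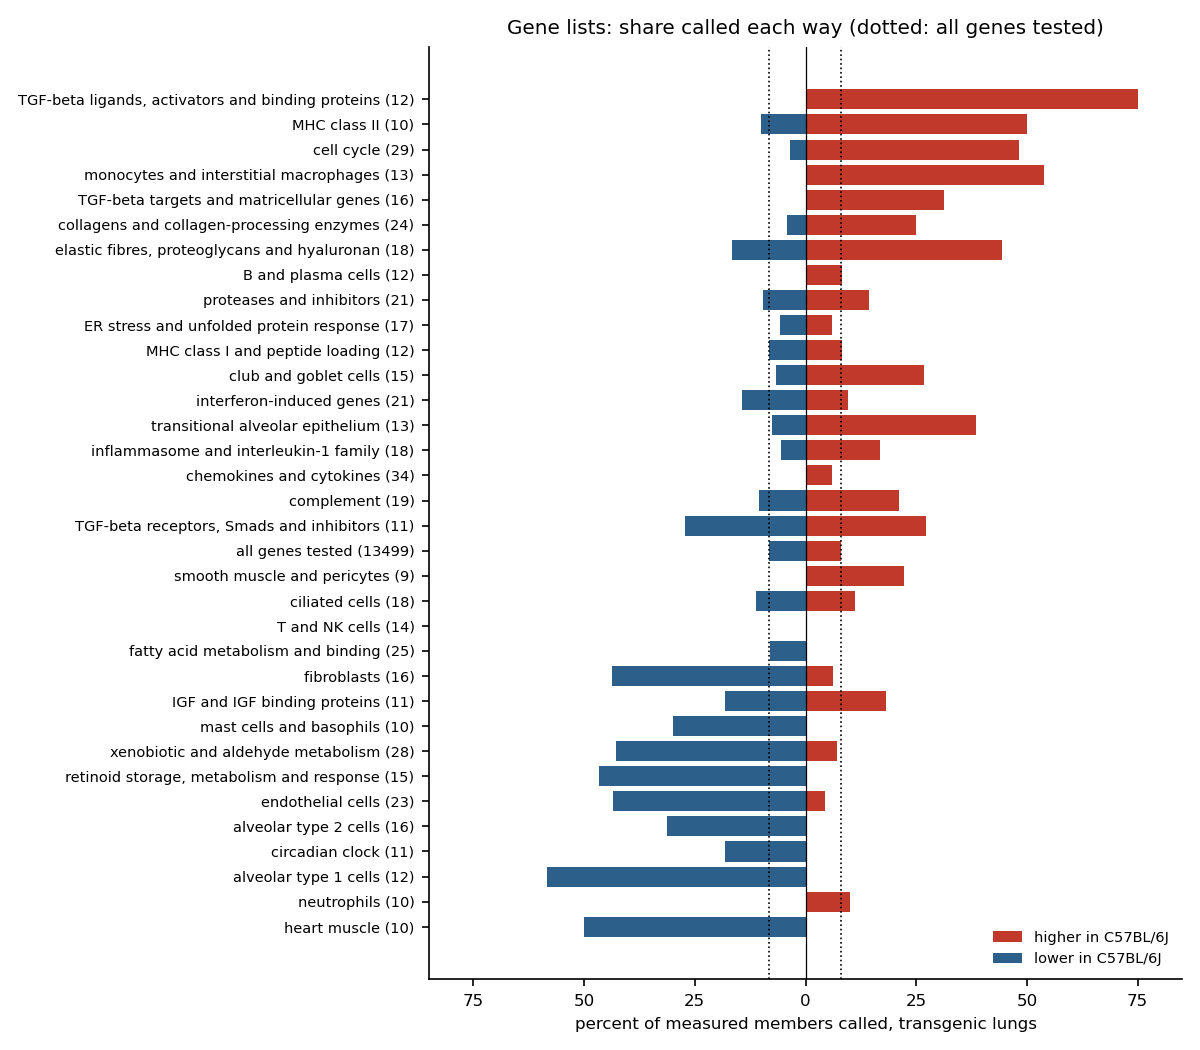
Percent of the measured members of each gene list (y axis, number measured in brackets) that were called higher (red, right) or lower (blue, left) in transgenic C57BL/6J lungs than in the other transgenic strains (x axis), with dotted lines at the shares of all genes tested (7.89% and 8.3%). The TGF-β activation list has the longest red bar (75%) and alveolar type 1 cells the longest blue one (58.3%); lists with 9 or more measured members are shown.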

How the data were processed

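RNA of the right lung lobe was measured on 24 arrays, 1 mouse each, and groups were taken from strain and genotype in the sample titles. The values were deposited by the authors as 1 number per probe set and were read as log2 intensities from their range of 3.41 to 14.75; no label or header names the log base, summarisation, normalization or software. Array medians lay between 7.759 and 7.835 and no further scaling was applied. Of 25285 probe sets, 14539 had 1 gene symbol in the platform annotation, 781 several and 9964 none here; the probe set of highest mean stood for each of 13499 genes (590 had several). On chromosomes 5 (26.3%), 6 to 9, X and Y (2.0% or less) few protein-coding genes were in the table, against 76.1% to 91.7% on the rest; genes outside it, Tgfb1 among them, were not analysed here.

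Contrasts were taken from a fit of 12 group means with limma 3.58.1 (lmFit, eBayes, two-sided, 12 residual degrees of freedom, R 4.3.3), which has a lone wild-type mouse vary like the other groups. Strains were weighted equally and p-values adjusted by Benjamini and Hochberg's method over 13499 genes. The fit was tested on simulated data. The number of arrays limits the precision (median residual SD 0.104). The compared mice and the 41 gene lists (557 of 814 genes measured) were chosen with earlier results of these data known. Named genes are the 15 (transgenic lungs), 12 (difference of effect) and 6 (wild types) largest called each way outside the range of the other mice or effects, up to 4 members per list, and H2-Ea, Nnt and lung markers as checks; further list members were named after their values were seen. Alternatives changed the scaling, filter, probe set rule, weights, prior, replicate block, mice and strains, one at a time. Replicate numbers did not pair the mice: deviations of 52 same-numbered pairs from their group means correlated at -0.15 to 0.13.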

Additional observations from a re-analysis of the deposited data

Results flagged for a closer look

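The difference of the transgene effect between C57BL/6J and the other 5 strains was itself tested and called for 24 named genes, given here as log2 values, C57BL/6J minus the others. The higher ones were Rgs5 at 1.79, Pkhd1 (fibrocystin) at 1.37, Lama1 at 1.28, Greb1 at 1.26, Ltbp2 at 1.25 and Mark1 at 1.24. They went on with Dkk2 at 1.16, Adamts4 at 1.14, Htr2b at 1.09, Scube1 and Shc4 at 1.05 each, and Fhod3, a formin, at 1.04. The lower ones were Sox11 at -1.44, Vipr2 at -1.42, Gsta3 at -1.34, Ifi206 at -1.25, Cyp4b1 at -1.14 and 1810010H24Rik at -1.12. The rest were the keratin Krt23 at -1.09, Atp6v1c2 at -1.03, the sodium channel Scn3a at -1.0, C7 at -0.98, Vmn2r93 at -0.96 and Ednrb at -0.94. Pkhd1 read 9.42 and 9.16 in transgenic C57BL/6J lungs and 7.18 to 8.76 in the others. Krt23 read 7.07 and 7.43, below all others (7.75 to 8.85). Greb1 was uneven within C57BL/6J, at 8.29 and 7.54, and overlapped the others (6.88 to 7.70). Vmn2r93, a vomeronasal receptor gene, was low throughout, at 5.70 and 5.53 against 5.48 to 6.34, and lost its call under 19 of the 36 alternatives run for it.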

How the results depend on the processing

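The genes named for transgenic lungs, for the effect and for wild types kept their sign under every alternative run for them. Other list members and the lung markers were not followed gene by gene. Of the 30 genes named for transgenic lungs, 29 were called under all 39 alternatives that keep the mouse as the unit, and 3 with strain means as the unit (Ublcp1, Apobec3 and Myh7); of the 24 named for the effect 5 were called under every alternative run for them (36 or 37); of the 12 named for wild types 8 were (37 or 38), with Ighg3 lost under the replicate block and without the second wild-type C57BL/6J mouse, and H2-Ea, Hsd3b2 and Cntn1 with wild types alone. Transgenic lungs gave 2186 calls, 747 to 2407 when single mice were left out, 5 with strain means as the unit and 517 with a difference of at least 0.5 as well. Leaving out the lone wild type of another strain, or weighting the other transgenic mice equally, repeats this fit with the same 2186. Those settings among the 39 could not lose a call. Wild types gave 711 calls, 192 to 842 without single mice, 83 with wild types alone and 269 with at least 0.5. The difference of effect gave 109 calls, 5 to 201 without single mice, 36 when every probe set was tested, which adjusts over 25284 of them, and 210 with array weights. Without A/J it gave 320 calls, without AKR/J 42, without C3H 49 and without BALB/cJ 55; the cause was not tested. Replicate numbers did not pair the mice, and with the replicate block the counts were 1999, 500 and 40. Quantile normalization and centring on the median moved the median difference of all genes in transgenic lungs from -0.029 to -0.010 and -0.050. The number of arrays limits what can be called.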

Other observations

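Scgb3a1, a secretoglobin of airway cells, read 12.84 and 13.04 in transgenic C57BL/6J lungs, above all other transgenic lungs (11.25 to 12.62), with a difference of 1.00 ± 0.25 (adjusted p = 0.011), and at most 13.05 in wild types. Clca1, a goblet cell product, had the largest higher difference of all genes (3.44 ± 0.97, adjusted p = 0.023), but the mice of a group were far apart, at 11.69 and 9.97 in transgenic and 8.38 and 11.92 in wild-type C57BL/6J lungs, and the others reached 11.70. Of 15 club and goblet cell genes 4 were higher (these, Agr2 and Chad) and 1 lower (Cbr2), and 1 was higher when either transgenic C57BL/6J mouse was left out.

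Within the IGF system, beside Igf1, the scavenging receptor Igf2r read 11.05 and 10.99, above all others (10.29 to 10.81), and was higher by 0.47 ± 0.05 (adjusted p = 1.7e-05). The binding proteins Igfbp5 and Igfbp6 were lower (-0.56 ± 0.10 and -0.74 ± 0.16), and Igfbp5 lay below all others (10.89 and 11.17 against 11.32 to 11.91). Igfbp6 read 8.86 and 8.87, inside the range of transgenic A/J lungs (8.58 to 9.05). Of 10 mast cell and basophil genes 3 were lower and 0 higher, with the mean level at 6.60 and 6.68 against at least 6.78 in every other transgenic lung; without either transgenic C57BL/6J mouse 0 were called. Masp2, a complement protease, was lower with and without the transgene (-0.95 ± 0.08 and -0.64 ± 0.09). Clock genes had 2 of 11 lower, Tef and Cry2 (-0.73 ± 0.20 and -0.41 ± 0.10), and the labels do not state the time of day of harvest. Adipose genes were uneven in wild types, at 8.09 and 9.12 in C57BL/6J.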
